A study of Rattus norvegicus with 20 samples.

Results

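The olfactory receptor promoters are the listed starts of rat genes named Olr followed by a number, the earlier rat names of odorant receptor genes. They were taken from the promoter peak lists of all 20 arrays, in which 1186 such symbols stood at 1184 distinct starts out of 14638 starts in all. A gene without a listed peak on any array is thus absent, among members and other starts alike. A start could enter through the arrays where its signal was high. How far this selection bears on the differences below was not tested. All 1184 were tested among 14635 starts with at least 10 array probes within 5 kb, of which they made up 8.09%. A member had 51 probes in the median (16 to 91), and 147 members shared probes with a neighbouring start, so their values are not independent of each other.

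Odorant receptors are G protein-coupled receptors of the olfactory sensory neuron, where each neuron expresses a single receptor gene and keeps the others in silent chromatin. The genes are short, carry their coding sequence in 1 exon and lie in arrays on many chromosomes. Class I receptors (now Or51 to Or56) form 1 array, and class II receptors make up the rest. Whether liver cells express any of these genes was not measured here. p65 (RelA) is the transactivating subunit of NF-kB, which enters the nucleus when the liver is injured or partly removed.

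The series measured p65 by chromatin immunoprecipitation and promoter tiling arrays (NimbleGen, 2 colours) in liver of wild-type male Sprague Dawley rats aged 8 to 10 weeks. Rats had received for 5 weeks either a carbohydrate control diet or a diet with 36% of calories from ethanol, and livers were taken 0, 1 and 6 hours after 70% partial hepatectomy. Arrays numbered 3 for 0h, 3 for 1h and 4 for 6h within either diet. The left lateral and median lobes are named as the source. Whether they were the source at every time could not be checked here, so lobe may differ between times. Cy5 carried the precipitated DNA and Cy3 the reference, named as input in the channel labels and as IgG-precipitated DNA in the labelling text, and the precipitation protocol is worded for cells in culture. The material was whole liver, so a signal in fewer cells and a weaker signal per cell cannot be told apart, and the tissue label could not be checked because no expression was measured. The fits take each array as 1 sample, and each p-value below therefore reflects scatter among arrays, part of which may be technical.

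Signal here is the deposited log2 ratio multiplied by −1, set to a median of 0 on each array and averaged over the probes within 5 kb of a start. The sign was turned because between 99.9% and 100% of the authors' peaks on each array lay below 0 as deposited. The direction itself is not stated, so in the deposited sign every difference below is the same size the other way. The array identifiers came in 4 formats, called runs here, and their slide and animal numbers gave 11 slides and 16 animals, 4 of them with 2 arrays. What a run was in the laboratory is not stated. Slides and animals were likewise read from parts of the identifiers and are not named in the sample labels. Slide and animal below mean these readings. All but 1 of the 0h arrays were run 1, which held no later array, and 11 of the 14 later arrays were run 3. The ethanol replicate 2 array at 0h was in run 2 on the slide of both replicate 1 arrays at 1h, and its member median (−0.25) lay below those of all 6 arrays at 1h.

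The sequences before the starts differ from those of other promoters, and a few carry the findings below. RefSeq promoters (GRCr8 build) were matched to 993 members and to 10165 other starts. The listed start was an ATG in 989 of the 993 members (99.6%), against 4.74% of the others, and the reference gene length was a multiple of 3 for 93.4% of members, with a median of 942 bp. A listed start of a member is therefore a coding start in these annotations, and the bases before it need not be the promoter of the transcript. The first sequence lies before Olr905 (now Or6c206), the member with the largest rise from 1h to 6h (chr7:2474371-2474620, plus strand in GRCr8 and minus strand in the files, as for 31 of the 993 members whose strands differ). The second lies before Olr1521 (now Or4d2b), which had the largest fall (chr10:73191178-73191427, minus strand). Olr1393 (now Or2y15) was among the 5 members with a listed peak on 15 of the 20 arrays, the most reached, and had the highest mean signal of those with a matched sequence (chr10:34208155-34208404, plus strand). Olr488 (now Or8k20) had the lowest mean signal (chr3:91665515-91665764, minus strand). Each line gives the 250 bases before the start from 5′ to 3′, with CpG dinucleotides in capitals.
Olr905: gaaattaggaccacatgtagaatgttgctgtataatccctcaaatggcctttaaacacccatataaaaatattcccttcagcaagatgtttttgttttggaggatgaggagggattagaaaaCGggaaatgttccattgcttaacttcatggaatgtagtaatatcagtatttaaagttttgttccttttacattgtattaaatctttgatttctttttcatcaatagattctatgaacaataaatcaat
Olr1521: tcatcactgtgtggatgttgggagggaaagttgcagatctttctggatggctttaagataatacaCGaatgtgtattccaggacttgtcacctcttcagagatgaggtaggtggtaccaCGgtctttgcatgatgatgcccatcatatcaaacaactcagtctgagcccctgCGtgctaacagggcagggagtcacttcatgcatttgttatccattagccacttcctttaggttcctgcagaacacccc
Olr1393: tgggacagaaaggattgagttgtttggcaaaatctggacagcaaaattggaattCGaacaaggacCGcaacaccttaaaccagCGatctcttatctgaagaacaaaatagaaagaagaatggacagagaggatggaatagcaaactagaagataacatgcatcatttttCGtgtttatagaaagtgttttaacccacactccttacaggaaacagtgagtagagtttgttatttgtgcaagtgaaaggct
Olr488: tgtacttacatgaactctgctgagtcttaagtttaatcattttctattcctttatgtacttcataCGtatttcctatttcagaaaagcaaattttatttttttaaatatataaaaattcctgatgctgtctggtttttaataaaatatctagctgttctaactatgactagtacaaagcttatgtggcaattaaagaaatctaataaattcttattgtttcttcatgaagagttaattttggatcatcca

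The GC content of these windows was 30.8% before Olr905, 47.2% before Olr1521, 38.4% before Olr1393 and 26.4% before Olr488. Over the 993 members the median GC content was 34.0% (quartiles 30.4% and 38.4%), against 58.0% before the other starts (50.8% and 65.2%). The median member window held 1 CpG and that of other genes 14, and 39.4% of members had none, against 2.73% of the others. The NF-kB consensus, searched on both strands, was present in 8 member windows (0.806%) and in 7.95% of the other windows, or 7.31% of all. TATAAA stood in 36.6% of members and 9.47% of others (11.9% of all), and TAATTA, the core of homeodomain sites, in 18.7% and 2.90% (4.31% of all). The early B-cell factor core CCCNNGGG was found in 1.01% of members and 14.9% of others (13.7% of all). A match of letters in this window is a description and no binding site. Of the 8 members with the NF-kB consensus, the one with the largest rise from 1h to 6h was Olr122 (now Or52a20). Its window is printed with the match in capitals, which reads as the consensus on the opposite strand and begins 63 bases before the start (chr1:167520128-167520377, plus strand).
Olr122: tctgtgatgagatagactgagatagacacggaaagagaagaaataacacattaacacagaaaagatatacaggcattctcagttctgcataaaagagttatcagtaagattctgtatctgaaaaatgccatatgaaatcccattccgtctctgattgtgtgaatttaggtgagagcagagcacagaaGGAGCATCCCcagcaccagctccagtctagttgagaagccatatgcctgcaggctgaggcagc

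The members moved together across the arrays. On the 6 arrays at 1h the median over the 1184 members lay between −0.23 and −0.18 (mean −0.21 ± 0.02, SD, n = 6), below the median of the other starts on every one. On the 8 arrays at 6h it lay between −0.00 and 0.15 (0.08 ± 0.06, n = 8), above the other starts on every one. On carbohydrate replicate 2 at 6h the gap was only 0.0015, with 49.5% of members and 48.6% of other starts above 0. At 0h it ranged from −0.25 to 0.11 (−0.02 ± 0.13, n = 6). The 1h and 6h arrays did not overlap, and the 0h arrays spanned nearly the whole range. The median of the other starts stayed between −0.02 and 0.05 on the 20 arrays.

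**Figure D1:**
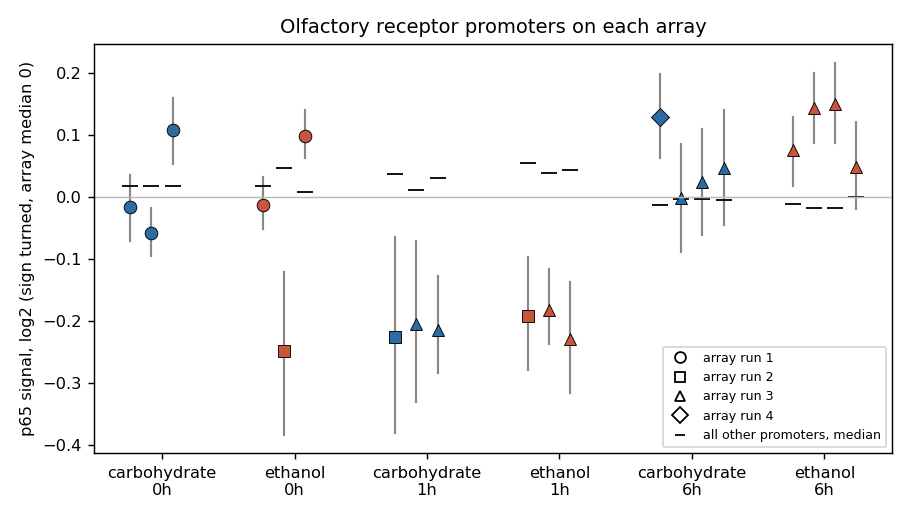
Median p65 signal (log2, sign turned, array median 0) over 1184 olfactory receptor promoters on each of 20 arrays, by diet and time; vertical lines span the quartiles over members, symbol shapes give the array run and dashes the median of all other promoters. All 6 arrays at 1h lie below −0.18 and all 8 at 6h at −0.00 or above.

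The 6h arrays against the 1h arrays asked which promoters gained or lost p65 signal between the early and the later time. Of 1184 members 1095 rose and 2 fell (limma, Benjamini-Hochberg adjusted p under 0.05 over 14635 starts), where 24.0% of all starts rose and 35.7% fell. The median difference was 0.29 over members and −0.03 over all starts. On 852 members every 6h array lay above every 1h array, a pattern found in 13.1% of all starts (1910 of 14635). No member showed the opposite, which was found at 1962 of the 14635 starts.

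Olr905, at position 3583887 of chromosome 7, had a signal of −0.54, −0.26 and −0.22 at 1h (lowest, median and highest of 6 arrays) and of 0.16, 0.27 and 0.38 at 6h (8 arrays). It rose by 0.58 ± 0.07 (SE, limma adjusted p = 3.65e-06), with no overlap between the times. Olr964 (now Or6c1) of the same cluster had −0.62, −0.31 and −0.23 at 1h and 0.07, 0.19 and 0.39 at 6h, and it rose by 0.58 ± 0.09 (limma adjusted p = 2.38e-05). Both belong to the Or6c subfamily, which fills a large part of the chromosome 7 array. Olr1532 (now Or5ac22) on chromosome 11 had −0.49, −0.31 and −0.09 at 1h and 0.13, 0.21 and 0.42 at 6h, and it rose by 0.52 ± 0.07 (limma adjusted p = 1.23e-05). The groups did not overlap at these 3 receptors.

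The 2 falls were at neighbours on chromosome 10 that share probes, Olr1521 and Olr1522 (now Or4d2). Olr1521 had −0.08, 0.17 and 0.41 at 1h and −0.01, 0.05 and 0.11 at 6h, and fell by 0.13 ± 0.05 (SE, limma adjusted p = 0.0313). Olr1522 had −0.10, 0.13 and 0.38 at 1h and −0.00, 0.03 and 0.06 at 6h, and fell by 0.11 ± 0.05 (limma adjusted p = 0.0388). The times overlapped at both, and neither passed with run as a term (limma adjusted p = 0.162 and 0.191) or with slides as a random block (limma adjusted p = 0.0716 and 0.0871). With 1 array left out in turn they lost the call in 6 and 11 of 20 fits. The Olr1521 window printed above holds 3 CpGs.

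The rise from 1h to 6h was present inside runs and slides. With run as a term 1122 members rose and 2 fell (24.7% and 34.2% of all starts), and in run 3 alone 1126 rose and 2 fell (25.4% and 35.1%). On the slide of carbohydrate 6h replicate 2 and carbohydrate 1h replicate 2, 1079 of 1184 members were higher at 6h, by 0.20 in the median. The same 6h array was higher than ethanol 1h replicate 2 at 1137 members (0.17). On another slide ethanol 6h replicate 1 was higher than ethanol 1h replicate 3 at 1169 members (0.30) and higher than carbohydrate 1h replicate 3 at 1141 (0.28). The corresponding medians of the other starts lay between −0.06 and −0.01. Both diets showed it, with a median of 0.27 in carbohydrate-fed rats (1132 members above 0) and 0.31 in ethanol-fed rats (1174 above 0).

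The base composition moved with this result. Across the 993 members with a sequence, GC content and the difference from 1h to 6h had a correlation of −0.61, and across 10165 other starts one of −0.37, over probes of the same 14 arrays. Among the other starts the correlation of GC content with the signal itself was between 0.08 and 0.28 on every 1h array and between −0.30 and −0.05 on every 6h array. The starts were divided into 5 parts of like size by GC content. In the lowest part 885 of 924 members rose (95.8%, median difference 0.30), and 743 of 1276 other starts rose (58.2%, median 0.13). The median GC content in it was 33.6% for members and 40.8% for the others. In the second part 34 of 66 members rose (51.5%, median 0.09), against 21.1% of the other starts (median −0.03). The part of base composition in the result was not tested.

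At 1h against 0h most members were called lower, between runs. Of 1184 members 892 were called lower and 26 higher at 1h (limma adjusted p under 0.05), where 19.5% of all starts were lower and 18.5% higher, and the median difference was −0.20 (0.00 over all starts). With run as a term no start of the array was called (0.0% in either direction, limma), with 36 members and 1092 starts in all at an unadjusted p under 0.05, and the member median was 0.07. Within the 1 slide that held both times, the members were not lower at 1h. There ethanol 1h replicate 1 was higher than ethanol 0h replicate 2, an array with the same animal number, at 923 of 1184 members (0.07 in the median). On that slide carbohydrate 1h replicate 1 was higher than ethanol 0h replicate 2 at 764 (0.03). In the animal with carbohydrate 0h replicate 2 in run 1 and carbohydrate 1h replicate 1 in run 2, 932 members were lower at 1h (−0.19). Outside that slide, time and run cannot be told apart here, since 0h was run 1 and 1h was runs 2 and 3. With slides as a random block 668 members were lower and 24 higher (14.4% and 14.2% of all starts).

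The largest falls at 1h were at Olr1122 (now Or7g16), Olr1292 (now Or8g18c) and Olr516 (now Or5t18). Olr1122 had −0.61, −0.05 and 0.09 at 0h (6 arrays) and −0.61, −0.46 and −0.27 at 1h (log2 difference −0.36 ± 0.10 SE, limma adjusted p = 0.00732). Olr1292 had −0.30, 0.02 and 0.22 at 0h and −0.56, −0.32 and −0.20 at 1h (−0.36 ± 0.07, limma adjusted p = 0.0014). Olr516 had −0.62, −0.09 and 0.09 at 0h and −0.66, −0.50 and −0.30 at 1h (−0.36 ± 0.11, limma adjusted p = 0.0163). At these 3 the ethanol replicate 2 array gave the lowest value at 0h, and it was the one 0h array within the 1h range. With run as a term the differences were 0.10, 0.08 and 0.10, a fit in which the 0h level is tied to later runs through that array alone. Without ethanol replicate 3 at 0h Olr516 lost its call. The largest rises were at Olr287 (now Or6f2), from −0.22, −0.13 and 0.02 to −0.06, 0.21 and 0.40 (0.28 ± 0.05, limma adjusted p = 0.000563), and at Olr876, from −0.27, −0.05 and 0.10 to −0.03, 0.16 and 0.36 (0.25 ± 0.05, limma adjusted p = 0.0024). Olr1521 was the third, at 0.24 ± 0.05 (limma adjusted p = 0.00245). Without the ethanol replicate 2 array at 0h, 1024 members were called and the median was −0.25. Of these 991 were lower and 33 higher, where 25.8% and 27.0% of all starts were called in that fit. The 3 rises kept their direction with run as a term, at 0.23, 0.13 and 0.12, and none of the 6 named members passed.

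At 6h against 0h 324 members rose and 0 fell, where 8.95% of all starts rose and 15.1% fell (limma adjusted p under 0.05). The median difference was 0.10 over members and −0.02 over all starts. Olr1434 (now Or2ak6e) on chromosome 10 had −0.25, −0.06 and 0.12 at 0h and 0.19, 0.32 and 0.38 at 6h, and it rose by 0.35 ± 0.05 (SE, limma adjusted p = 0.000475). Olr916 (now Or6c202e) had −0.17, 0.05 and 0.20 at 0h and 0.21, 0.34 and 0.48 at 6h (0.32 ± 0.06, limma adjusted p = 0.00215). Olr103 (now Or52ae7), a class I receptor, had −0.18, 0.06 and 0.14 at 0h and 0.25, 0.36 and 0.42 at 6h (0.31 ± 0.04, limma adjusted p = 0.000379). The times did not overlap at these 3. With run as a term 870 members rose (13.3% of all starts), a value that rests on ethanol replicate 2 at 0h, the only 0h array sharing a run with later ones. Olr916 did not pass in that fit, at a difference of 0.27 (limma adjusted p = 0.105). With slides as a random block 296 rose (7.37% of all starts). The count ranged from 156 (4.43% of all starts), without carbohydrate replicate 2 at 0h, to 607 (13.1%), without ethanol replicate 3 at 0h. Without ethanol replicate 2 at 0h 222 rose and 4 fell (7.97% and 13.4% of all starts), and the median was 0.04. In the 2 animals with a 0h array in run 1 and a 6h array in run 3, most members were lower at 6h (971 and 752 of 1184, medians −0.12 and −0.03). The other starts were higher at 6h in 44.6% and 42.1% of cases there, with medians of −0.02 and −0.02.

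The authors' peak lists, called on each of these same arrays, had the same order of times. They also supplied the members and the other starts, so they are no separate evidence. The shares below are of starts with a listed peak on some array, and receptors without any are not counted. At 1h between 2.28% and 14.9% of members had a listed peak (mean 7.32% ± 4.55, SD, n = 6), against 30.1% to 50.3% of the other starts. At 6h between 59.8% and 78.6% had one (67.0% ± 6.88, n = 8), against 16.1% to 37.3%. At 0h the share ran from 6.42% to 57.3% (27.6% ± 22.6, n = 6), against 19.2% to 37.0%. Of all listed peaks, members held 0.34% to 3.66% on the 1h arrays and 13.6% to 31.9% on the 6h arrays. The 1h and 6h arrays did not overlap, while the 0h arrays ran from within the 1h range to just below the 6h range. A peak on at least 2 arrays of a group was found at 79.2% of members in carbohydrate 6h and 81.4% in ethanol 6h. The other starts had 35.8% and 25.4% there. In carbohydrate 1h and ethanol 1h it was 7.18% and 1.44% of members, against 30.5% and 44.8%. In carbohydrate 0h and ethanol 0h it was 14.4% and 20.0%, against 20.8% and 19.5%. A group had 4 arrays at 6h and 3 at 0h and 1h, so this bar was easier to reach at 6h.

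**Figure D2:**
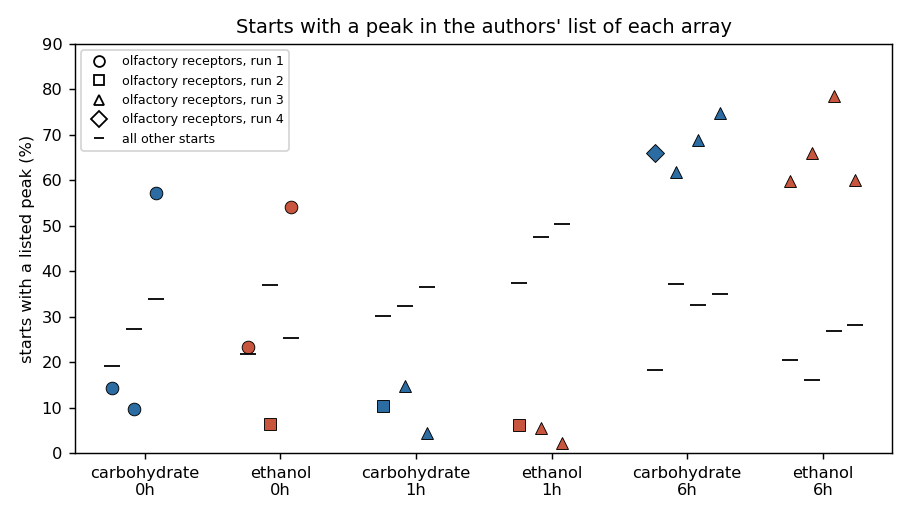
Percent of starts with a listed peak on each of 20 arrays, by diet and time; symbols are olfactory receptors, with the shape giving the array run, and dashes all other starts. On every 6h array the receptors (59.8% to 78.6%) lie above the other starts, and on every 1h array (2.28% to 14.9%) below them.

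The median score of peaks at receptors lay above that of peaks elsewhere on 8 of 8 arrays at 6h, on 0 of 6 at 1h and on 0 of 6 at 0h. Averaged over arrays, the median of the authors' peak score was 0.49 ± 0.06 for members and 0.46 ± 0.05 for other starts at 6h (SD, n = 8), and 0.51 ± 0.10 and 0.56 ± 0.11 at 1h (n = 6). Within 1 kb of the start lay 68.4% ± 6.68 of the member peaks at 6h, against 37.2% ± 1.95 of the others. A member had a peak on 8 arrays in the median and another listed start on 6. No member reached more than 15 arrays. The 5 members at 15 were Olr1451, Olr1393, Olr11 (now Or5ae1), Olr156 (now Or52ac1) and Olr779 (now Or4f14). Olr1451 on chromosome 10 had signals of 0.01, 0.07 and 0.12 at 0h, −0.04, 0.01 and 0.15 at 1h and 0.20, 0.31 and 0.42 at 6h (lowest, median and highest). Olr1393, shown above, had 0.04, 0.21 and 0.41 at 0h, −0.19, −0.02 and 0.18 at 1h and 0.13, 0.20 and 0.37 at 6h, and its times overlapped. Mean signals over the 20 arrays were 0.15 for Olr1451, 0.14 for Olr1393, 0.08 for Olr11, and 0.04 for both Olr156 and Olr779.

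At 1h and 6h the signal was placed over the gene more than before it. At 6h the mean over member probes was 0.34 in the first 500 bp after the start and 0.31 in the next 500 bp, and between 0.00 and 0.03 in each 500 bp bin of the 4500 bp before it. At 1h the means were 0.07 and 0.01 after the start and −0.28 to −0.23 before it. Other genes showed −0.08 and −0.01 after the start at 6h. The mean over the first 900 bp after the start exceeded the mean of the 5 kb before it at 93.7% ± 4.76 of members at 6h (SD, n = 8), 95.4% ± 2.43 at 1h (n = 6) and 70.0% ± 18.7 at 0h (n = 6). The shares of other starts were 39.4% ± 5.47, 53.0% ± 7.13 and 43.5% ± 10.9 in the same order. The median step from before to after the start was 0.33 ± 0.11 at 6h, 0.33 ± 0.11 at 1h and 0.14 ± 0.16 at 0h. Without ethanol replicate 2 at 0h, which had a step of 0.44, the 0h value was 0.08 ± 0.07 (n = 5). On carbohydrate replicate 2 at 0h the step was −0.02, and 43.5% of members and 60.2% of other starts were higher after the start. The step was thus of like size at 1h and 6h, and both sides moved between those times. From 1h to 6h the median difference was 0.30 after the start (1094 of 1184 members above 0) and 0.28 before it (1164 above 0). For other starts with enough probes these medians were −0.10 and −0.03.

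**Figure D3:**
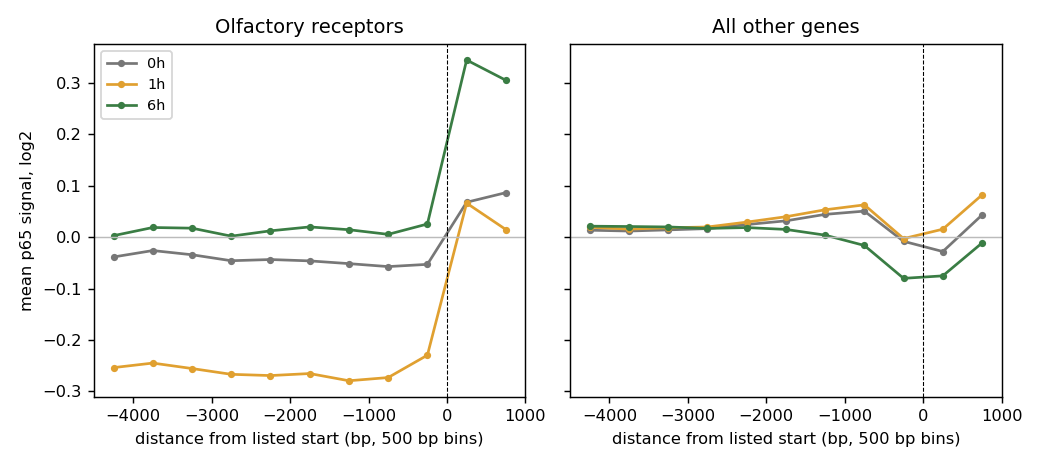
Mean p65 signal (log2) in 500 bp bins by distance from the listed start, for olfactory receptors (left) and all other genes (right) at 0h, 1h and 6h. In the receptors the line steps up at the start, to 0.34 at 6h and 0.07 at 1h, while the whole 6h line lies above the whole 1h line.

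The level of a member over the 20 arrays ranged widely. The highest mean signals were at Olr386 (now Or6al2), at 0.25 ± 0.12 (SD, n = 20), Olr1452 (now Or2t44b), at 0.17 ± 0.15, and Olr1433, at 0.17 ± 0.10. Olr386 lies on unplaced sequence of chromosome 1 and had 0.18, 0.29 and 0.42 at 1h and 0.13, 0.23 and 0.40 at 6h, unlike most members. Olr1452 and Olr1433 lie in the same chromosome 10 cluster as Olr1451. The lowest were Olr488 (−0.37 ± 0.24), Olr252 (now Or5p60c, −0.29 ± 0.21) and Olr514 (now Or8k40, −0.27 ± 0.24). Olr488 had −0.77, −0.22 and −0.00 at 0h, −0.77, −0.58 and −0.26 at 1h and −0.53, −0.34 and −0.06 at 6h, with a peak on 1 array. Its window, printed above, was 26.4% GC. Array by array, Olr488 lay below Olr252 on 17 and below Olr514 on 19 of the 20 arrays. Olr386 lay above Olr1452 on 12 and above Olr1433 on 15.

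Members on 1 chromosome with neighbouring starts at most 1 Mb apart were taken as a cluster and named by chromosome and order. There were 50 clusters, of which 30 held at least 5 members and 1152 members together. The median difference from 1h to 6h was above 0 in 29 of the 30, from −0.00 to 0.40, and in 22 the cluster medians of the 6h arrays all lay above those of the 1h arrays. The largest, 3.2, held 216 members between 68578833 and 74747132 of chromosome 3 in the coordinates of the files, whose build is not given in the sources used here. Its median was −0.31 ± 0.07 at 1h and 0.02 ± 0.10 at 6h (SD, n = 6 and 8), and 215 of its members rose (limma). Over all starts 24.0% rose in this comparison. Cluster 1.5 on chromosome 1, which holds the class I receptors and class II neighbours, had 187 members, of which 182 rose, at −0.19 ± 0.02 and 0.08 ± 0.05. Cluster 8.2 had 108 members, of which 106 rose. Cluster 7.1, the array of Olr905 and Olr964, had 76, of which 74 rose, and the highest median difference (0.40).

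The clusters with the smallest differences were 5.1 (−0.00, 2 of 7 members rose), 5.4 (0.05, 5 of 12), 7.5 (0.05, 1 of 6) and 9.1 (0.06, 4 of 10). Over all starts 24.0% rose, so the shares in 5.1 and 7.5 were not far from that of starts in general. Cluster 9.1 on chromosome 9 was at 0.09 ± 0.11 at 1h and 0.14 ± 0.04 at 6h, so it did not have the low level at 1h seen in clusters such as 3.2. It was not alone in this. At 1h clusters 5.4, 10.3 and 10.4 were at 0.14, 0.11 and 0.07 with carbohydrate and −0.04, −0.02 and −0.06 with ethanol. The median GC content before the starts was 45.2% to 50.8% in clusters 5.1, 5.4, 7.5 and 9.1. It was 39.0% in 10.4, 30.4% in 3.2 and 31.4% in 7.1. Across the 30 clusters the correlation of median GC content and median difference was −0.81, all values coming from the same 14 arrays. Cluster 10.3, with 33.4% GC in its 4 sequenced members of 8, had a small difference (0.08) all the same.

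**Figure D4:**
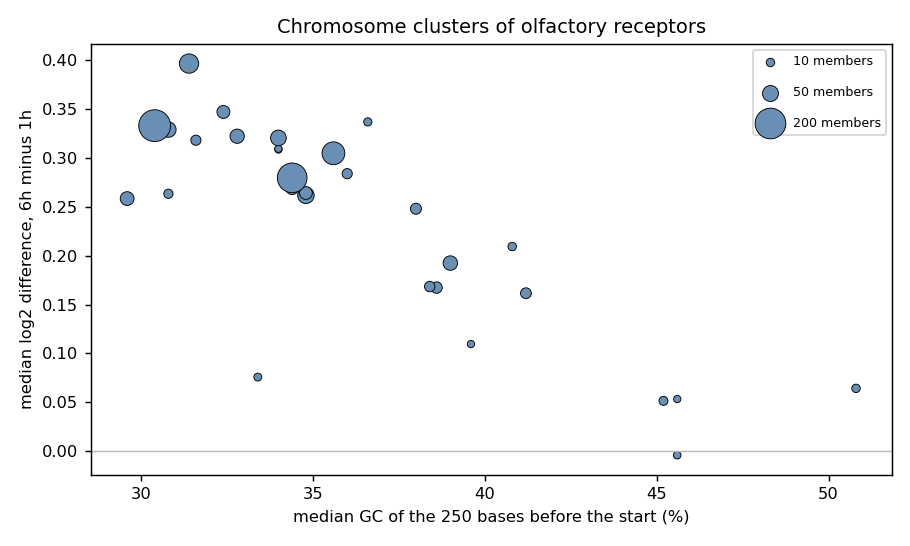
Median log2 difference in p65 signal, 6h minus 1h, against the median GC content of the 250 bases before the start, for 30 clusters of at least 5 olfactory receptors; the area of a point grows with the number of members. The points run from 0.40 for cluster 7.1 at 31.4% GC to −0.00 for cluster 5.1 at 45.6%.

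Members of both classes, and of every family with at least 20 members, were mostly called higher at 6h. Of 128 class I receptors, all on 1 chromosome, 124 rose from 1h to 6h with a median of 0.27, and of 987 class II receptors on 18 chromosomes 911 rose with a median of 0.29. Among families of at least 20 members the median was lowest in family 13 (0.19, 33 of 42 rose) and highest in family 12 (0.33, 19 of 21 rose). All 55 members of family 7 rose (0.33). Over all starts 24.0% rose in this comparison. The 8 members with the NF-kB consensus had a median difference of 0.24, with 7 called higher, and the 985 members without it one of 0.29, with 912 called higher.

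Other chemosensory receptor families were called in the same direction. From 1h to 6h all 64 vomeronasal receptor starts rose (median 0.35, limma), as did 20 of 24 taste receptor starts (0.22, 1 fell) and all 17 trace amine receptor starts (0.23). Potassium channel genes, taken for comparison, had 13 higher and 33 lower of 85 (−0.07). Genes of other kinds inside the clusters, with no shared probes, had 29 higher (37.7%) and 15 lower of 77, with a median of 0.03. Outside the clusters 16.2% of 11929 other starts were higher and 40.1% lower (−0.05). Among 15 NF-kB target genes 6 were called higher and 6 lower (−0.05). Over all starts 24.0% were called higher and 35.7% lower.

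The genes through which odorant receptors signal were called in both directions, as were starts in general. Of 13 starts of signalling and maturation genes 2 rose and 3 fell from 1h to 6h (limma, median 0.04), where 24.0% of all starts rose and 35.7% fell. The rises were at Rtp2, a chaperone that brings receptors to the membrane (0.19 ± 0.05 SE, limma adjusted p = 0.001), and Pde1c, a phosphodiesterase (0.08 ± 0.03, limma adjusted p = 0.0447), which was −0.23 with probes within 1 kb. The falls were at the adenylyl cyclase Adcy3 (−0.19 ± 0.04), the olfactory marker protein gene Omp (−0.18 ± 0.04) and the channel subunit Cnga4 (−0.13 ± 0.04). From 0h to 6h Rtp2 (0.19), Rtp1 (0.12) and Cngb1 (0.16) rose, and Cnga4 (−0.11) and Adcy3 (−0.13) fell, where 8.95% of all starts rose and 15.1% fell. From 0h to 1h Omp (0.18) and Cngb1 (0.13) were called higher, as were 18.5% of all starts. With 1 array left out in turn the call was lost in 11 of 20 fits for Rtp1 from 0h to 6h and for Pde1c from 1h to 6h. It was lost in 8 for Cnga4 and 7 for Adcy3 from 0h to 6h, and in 4 for Cngb1 from 0h to 1h. Of 13 starts of genes that control receptor choice none rose and 5 fell from 1h to 6h. These were Atf5 (−0.38 ± 0.06), the methyltransferase Ehmt2 (−0.35 ± 0.07), the cofactor Ldb1 (−0.30 ± 0.07), Emx2 (−0.22 ± 0.04) and the homeodomain factor Lhx2 (−0.19 ± 0.03). A fall was called at 35.7% and a rise at 24.0% of all starts in this comparison.

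Whether ethanol changed p65 signal at the receptors was asked at each time. No member and no other start passed (0.0%, limma) for ethanol against carbohydrate at 0h, 1h or 6h, nor for the diet difference in the change from 1h to 6h. At an unadjusted p under 0.05 stood 25, 114, 66 and 100 members in these comparisons, of 882, 2653, 702 and 1799 starts in all. The member medians of these differences were −0.07, 0.02, 0.06 and 0.04. At 0h the smallest p-values were at Olr869 (now Or10ak7; 0.18 ± 0.06 SE, limma adjusted p = 0.693) and Olr1523 (0.19 ± 0.06, limma adjusted p = 0.693). At 6h they were at Olr1516 (now Or1p1; 0.20 ± 0.06, limma adjusted p = 0.933) and Olr1643 (now Or4e2; 0.14 ± 0.04, limma adjusted p = 0.933). For the diet difference in the change they were at Olr1516 (0.43 ± 0.09, limma adjusted p = 0.229) and Olr1463 (now Or2aa1; 0.25 ± 0.06, limma adjusted p = 0.248).

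At 1h the values closest to the threshold were 2 neighbours on chromosome 1. Olr286 (now Or6ae1) had 0.21, 0.28 and 0.23 on the carbohydrate arrays and −0.02, 0.13 and −0.04 on the ethanol arrays (−0.22 ± 0.05 SE, limma adjusted p = 0.0561). Olr288 (now Or6b13) had 0.23, 0.19 and 0.19 against −0.05, 0.08 and −0.06 (−0.21 ± 0.05, limma adjusted p = 0.0561). The diets did not overlap at either. Calls at 1h appeared once slides or runs were taken into account. With slides as a random block 63 members were lower and 0 higher in ethanol-fed rats (2.28% and 5.77% of all starts). With run as a term 86 were lower and 9 higher (3.87% and 8.78%), and in run 3 alone 75 were lower and 20 higher (4.05% and 8.04%). Leaving out single arrays gave 75 lower members without ethanol replicate 1 at 1h (3.80% of all starts), 31 without ethanol replicate 2 at 0h (0.909%), 19 without carbohydrate replicate 3 at 1h (0.383%) and 4 without ethanol replicate 2 at 1h (0.0820%). At 6h no member was called with run or slide terms (limma; 0.00683% of all starts were lower with run as a term). At an unadjusted p under 0.05 stood 480 members of 2369 starts with run as a term and 568 of 2730 in run 3 alone. With array weights 209 members were higher and 27 lower at 6h (5.62% and 6.58% of all starts). For the diet difference in the change from 1h to 6h, 40 members were higher and 2 lower with run as a term (1.02% and 2.02% of all starts), and 101 and 3 in run 3 alone (3.51% and 5.94%). None was called with slides as a block (0.0273% and 0.0342%), and 42 were higher and 1 lower without ethanol replicate 1 at 1h (1.87% and 3.15%).

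The 63 members lower in ethanol with slides as a block included 56 in 14 of the 30 clusters. They were 8 of 40 in cluster 10.4, 8 of 20 in 10.1, 8 of 12 in 5.4, 7 of 10 in 9.1, 6 of 36 in 10.5 and 5 of 23 in 1.6, which makes 42, and 0 of 216 in 3.2. At 1h cluster 9.1 was at 0.19 ± 0.05 with carbohydrate and 0.00 ± 0.06 with ethanol (SD, n = 3 each), and cluster 10.4 at 0.07 ± 0.07 and −0.06 ± 0.02. Cluster 3.2 was at −0.35 ± 0.05 and −0.27 ± 0.05, the other way round. In 5 of the 30 clusters all ethanol arrays lay below all carbohydrate arrays, and in 1, cluster 3.3 with 39 members, all lay above. Across clusters the correlation of median GC content with the diet difference at 1h was −0.75, over the same 6 arrays. The correlation of GC content and signal among members was 0.59 to 0.62 on the carbohydrate 1h arrays and 0.45 to 0.56 on the ethanol 1h arrays. The part of base composition in the diet difference was not tested.

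**Figure D5:**
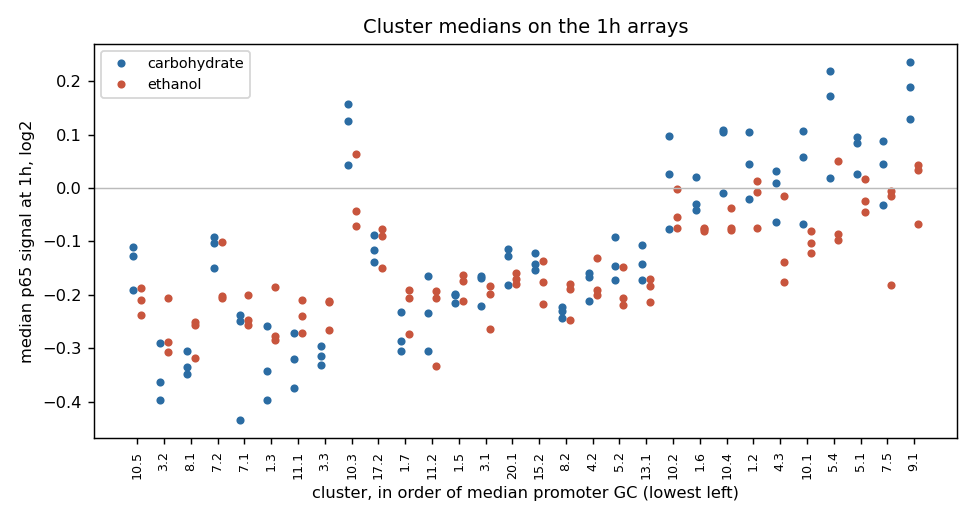
Median p65 signal at 1h (log2) of each of 30 clusters, ordered by the median GC content before the starts, with 1 point for each of 3 carbohydrate and 3 ethanol arrays. The carbohydrate points all lie above the ethanol points in 5 clusters, among them 9.1 at the highest GC content (0.19 ± 0.05 against 0.00 ± 0.06), and overlap with them in others such as 5.4.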

How the data were processed

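The deposited value table holds a log2 ratio per probe and array, and how the authors centred it or which channel was the numerator is not given in the sources used here. The authors also deposited a peak list per array, called on single arrays, with a score and an FDR for each peak (2874 to 9387 peaks, FDR up to 0.200) and its distance from a listed start. The caller and genome build are not given in the sources used here.

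Each array was centred on its median and multiplied by −1, and probes within 5 kb of a start were averaged where at least 10 lay there. Deposited array medians lay between −0.02 and 0.02. Differences were fitted with limma 3.58.1 (R 4.3.3) over 14635 starts on the means of the 6 groups, with trended empirical Bayes variances and Benjamini-Hochberg adjustment at 0.05. The fits were checked on simulated data. Sequences come from RefSeq (GRCr8), with 1176 of 1184 member starts matched to a current symbol. The members, clusters and lists were chosen with earlier results of these data known. Genes named are the 3 largest called changes each way in each comparison, the 2 smallest p-values where none was called, the 5 members with most peaks and the 3 highest and lowest mean signals. The called genes of the signalling and receptor choice lists are named as well. Alternatives varied the sign, probe distance, window, probe minimum, array scaling and weights, and terms for run, slide, animal and replicate number. The potassium channel, NF-kB target and other receptor lists served for comparison. Of the hepatocyte list all 4 starts fell from 1h to 6h.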

Additional observations from a re-analysis of the deposited data

Results flagged for a closer look

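At 2 of 66 sets of 4 arrays of a group, 1 array stood apart from the other 3 by Dixon's criterion, where chance gives about 1 in 20. Olr1434 on the carbohydrate 6h arrays reached 0.38 on 1 array, above the next value of 0.33, and its gap was 0.844 of the range. Olr156 on the ethanol 6h arrays was 0.083 on 1 array, below the next value of 0.14, with a gap of 0.934 of the range. The cause was not tested.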

How the results depend on the processing

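The rise of members from 1h to 6h kept its direction and its count within 1.5 times under every alternative run in the turned sign, with 858 (500 bp window) to 1128 (run 3 alone) members called. Results at 1h against 0h and 6h against 0h did not, and the counts for 1h against 0h were 164 with the 500 bp window of highest mean, 465 with probes within 1 kb and 0 with run as a term. The medians of 1h against 0h were −0.093 with the window and 0.067 with run as a term. For 6h against 0h the counts were 655, 642 and 870 in that order and 699 with array weights, with medians of 0.26 for the window and 0.34 for run as a term. For 1h against 0h the window gave 55 higher and 109 lower, and probes within 1 kb 41 and 424. With array weights 23.1% of all starts rose and 38.1% fell from 0h to 6h. With 500 bp windows and with probes within 1 kb, shares of all starts are not given here, so these counts cannot be set against them. Run as a term ties the 0h level to later runs through ethanol replicate 2 at 0h alone. With array weights, whose estimation gave a convergence warning, ethanol against carbohydrate gave 86 calls at 0h (69 higher and 17 lower, where 6.31% and 4.78% of all starts were called) and 67 at 1h (5 and 62, 5.75% and 2.49%). It gave 236 at 6h (209 and 27, 5.62% and 6.58%) and 105 for the diet difference in the change (98 and 7, 3.68% and 7.67%). At 1h it gave 95 calls with run as a term, 95 in run 3 alone and 63 with slides as a random block, and the diet difference in the change gave 42 and 104 with the first pair. The window turned the medians for ethanol to 0.084 at 0h, −0.12 at 6h and −0.10 for the change, and run as a term turned the median at 0h to 0.033. The member level was 0.17, 0.088 and 0.43 at 0h, 1h and 6h with the window. With probes within 1 kb it was −0.11 at 1h and 0.17 at 6h, and with arrays scaled to the same spread −0.19 at 1h. Peaks at an FDR of at most 0.05 were listed at 2.18% of members at 1h and 33.5% at 6h, and peaks within 1 kb at 57.4% at 6h. The cause of these changes was not tested.

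Same-numbered arrays of different groups did not deviate together (mean correlation 0.0552 over 46 pairs), so the numbers give no pairing. With the replicate block 936 members were called for 1h against 0h (26 higher and 910 lower) and 326 for 6h against 0h (all higher). It gave 1086 for 6h against 1h (1082 higher and 4 lower) and 1 for ethanol at 1h (lower). Shares of all starts in this fit are not given here, so these counts cannot be set against them.

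With 1 array left out in turn, the members called ranged from 632 to 1024 for 1h against 0h, 156 to 607 for 6h against 0h, 1075 to 1108 for 6h against 1h, 0 to 75 for ethanol at 1h and 0 to 43 for the diet difference in the change. For ethanol at 0h and at 6h they stayed at 0. The share of all starts moved too. In the fits with 632 and 1024 members called, 12.6% and 25.8% of all starts were lower and 12.1% and 27.0% higher. In those with 1075 and 1108, 23.3% and 25.2% of all starts were higher and 33.3% and 37.7% lower. The member medians ranged from −0.25 to −0.16, 0.04 to 0.13 and 0.28 to 0.30 for the 3 time comparisons. For ethanol at 0h, 1h and 6h and for the change they ranged from −0.16 to 0.033, 0.01 to 0.03, 0.04 to 0.09 and 0.02 to 0.07. Member levels ranged from −0.05 to 0.02 at 0h, −0.21 to −0.20 at 1h and 0.07 to 0.09 at 6h, and shares of members with a peak from 21.6% to 31.8%, 5.81% to 8.33% and 65.4% to 68.1%. The falls of Olr1521 and Olr1522 from 1h to 6h lost their call in 6 and 11 of these 20 fits, and the fall of Olr516 at 1h in 1 (without ethanol replicate 3 at 0h). Rtp1 from 0h to 6h and Pde1c from 1h to 6h lost it in 11, Cnga4 and Adcy3 from 0h to 6h in 8 and 7 and Cngb1 from 0h to 1h in 4, and no named gene changed direction. Of 39 named genes' results, 16 lost and 4 gained a call with run as a term, and 6 lost and 2 gained one with slides as a random block.

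Single genes changed direction with the 500 bp window of highest mean. For 6h against 0h the difference was 0.16 at Adcy3. For 6h against 1h the difference was −0.053 at Pde1c. For ethanol at 6h the difference was −0.18 at Olr1516. With run as a term others did. For 1h against 0h the differences were 0.10 at Olr1122, 0.078 at Olr1292 and 0.10 at Olr516. With probes within 1 kb a further pair did. For 6h against 0h the difference was 0.10 at Cnga4. For 6h against 1h the difference was −0.23 at Pde1c. In the deposited sign every value changes sign by construction. The medians become 0.20, −0.10 and −0.29 for the 3 time comparisons and 0.073 and −0.058 for ethanol at 0h and 6h, and the levels 0.21 at 1h and −0.076 at 6h. Named genes take these values. For 1h against 0h the differences were −0.28 at Olr287, −0.25 at Olr876, −0.24 at Olr1521, 0.36 at Olr1122, 0.36 at Olr1292, 0.36 at Olr516, −0.18 at Omp and −0.13 at Cngb1. For 6h against 0h the differences were −0.35 at Olr1434, −0.32 at Olr916, −0.31 at Olr103, 0.11 at Cnga4, −0.19 at Rtp2, −0.12 at Rtp1, −0.16 at Cngb1 and 0.13 at Adcy3. For 6h against 1h the differences were −0.58 at Olr905, −0.58 at Olr964, −0.52 at Olr1532, 0.13 at Olr1521, 0.11 at Olr1522, 0.18 at Omp, 0.13 at Cnga4, −0.19 at Rtp2, −0.083 at Pde1c, 0.19 at Adcy3, 0.38 at Atf5, 0.30 at Ldb1, 0.22 at Emx2, 0.35 at Ehmt2 and 0.19 at Lhx2. For ethanol at 0h the differences were −0.18 at Olr869 and −0.19 at Olr1523. For ethanol at 1h the differences were 0.21 at Olr288 and 0.22 at Olr286. For ethanol at 6h the differences were −0.20 at Olr1516 and −0.14 at Olr1643. For the diet difference in the change the differences were −0.43 at Olr1516 and −0.25 at Olr1463. With the deposited sign and its own 500 bp window 191, 56 and 275 members were called for the 3 time comparisons, with medians of 0.29 at 1h against 0h and −0.25 at 6h against 1h. Its medians were 0.17, −0.11 and −0.18 for ethanol at 0h, 1h and 6h and −0.068 for the change. Some named genes were opposite in sign to the reported value. For 1h against 0h the differences were −0.22 at Olr287, −0.28 at Olr1521, 0.34 at Olr1122, 0.55 at Olr1292, 0.48 at Olr516, −0.054 at Omp and −0.014 at Cngb1. For 6h against 0h the differences were −0.39 at Olr1434, −0.28 at Olr916, −0.095 at Olr103, 0.076 at Cnga4, −0.022 at Rtp2, −0.089 at Rtp1 and 0.12 at Adcy3. For 6h against 1h the differences were −0.27 at Olr905, −0.49 at Olr964, −0.26 at Olr1532, 0.35 at Olr1521, 0.35 at Olr1522, 0.15 at Omp, −0.19 at Rtp2, −0.27 at Pde1c, 0.20 at Ldb1 and 0.25 at Ehmt2. For ethanol at 1h the differences were 0.18 at Olr288 and 0.23 at Olr286. For ethanol at 6h the differences were −0.30 at Olr1516 and −0.018 at Olr1643. For the diet difference in the change the differences were −0.48 at Olr1516 and −0.13 at Olr1463.

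The number of arrays, 3 or 4 a group, limits the precision of every value, and no signal over background was given with the ratios.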
